A study of Mus musculus with 15 samples.

Results

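The genes described here are 10 members of bone morphogenetic protein (BMP) signalling and its transcriptional output: the ligands Bmp4 and Bmp7, the secreted antagonists Nbl1 and Nog, the inhibitory SMADs Smad6 and Smad7, and the inhibitors of DNA binding Id1, Id2, Id3 and Id4. They were measured in mouse forebrain RNA on 15 arrays, 5 in each of 3 groups. Every probe set that the array's annotation pairs with one of these symbols alone was taken, which gave 17 of 34945 probe sets with 1 symbol, for 10 of 18193 genes. The members were chosen by measured values, with results of all 3 comparisons known, so their levels, differences and calls are given as a description and support no claim about the pathway.

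The VEH-Sham group (replicates 1 to 5) received vehicle 1 h before sham surgery. The VEH-HI group (6 to 10) received vehicle 1 h before hypoxic ischemia, a combined loss of oxygen and blood flow. The EPO-HI group (11 to 15) received erythropoietin at 5 U per g into the peritoneum 1 h before hypoxic ischemia. No group had erythropoietin with sham surgery, and the sources used here do not give strain, age, sex or the delay between injury and sampling. The labels do not say that samples are separate animals, so every SE and p-value reflects sample-to-sample spread that may be technical.

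BMPs are secreted ligands that bind pairs of serine/threonine kinase receptors, which phosphorylate Smad1, Smad5 and Smad9. These SMADs join Smad4, enter the nucleus and switch on targets, of which the Id genes are among the most direct. Id proteins carry a helix-loop-helix but no DNA-binding region, and they hold E proteins such as Tcf3, Tcf4 and Tcf12 away from proneural partners. Smad6 and Smad7 are themselves induced targets that block the receptors, and noggin (Nog) and Nbl1 bind BMPs outside the cell. In the brain the pathway is known for favouring astrocyte over neuronal fate and for its activity in the vessel wall.

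Promoter sequence was available from RefSeq (GRCm38.p6) for 6 of the 10 members: Id2, Id3, Id4, Bmp4, Nbl1 and Smad6. Shown first are the 250 bases upstream of the annotated start of Id3 and of Nbl1. Id3 had a higher mean after hypoxic ischemia than in sham forebrain, a call lost once the array sets described below were modelled. Nbl1 did not overlap between VEH-HI and EPO-HI, with EPO-HI lower, as in 0.392% of tested probe sets, and its difference did not pass. Id3 lies on the plus strand (chr4:136143572-136143821) and Nbl1 on the minus strand (chr4:139092971-139093220), and capitals mark the only motif match, GGCGCC in Nbl1.
Id3: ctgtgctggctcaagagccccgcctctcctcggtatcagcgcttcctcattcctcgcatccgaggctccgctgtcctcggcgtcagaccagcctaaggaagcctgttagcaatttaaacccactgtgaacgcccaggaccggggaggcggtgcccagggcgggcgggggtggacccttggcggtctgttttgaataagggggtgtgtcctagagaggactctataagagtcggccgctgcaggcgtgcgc
Nbl1: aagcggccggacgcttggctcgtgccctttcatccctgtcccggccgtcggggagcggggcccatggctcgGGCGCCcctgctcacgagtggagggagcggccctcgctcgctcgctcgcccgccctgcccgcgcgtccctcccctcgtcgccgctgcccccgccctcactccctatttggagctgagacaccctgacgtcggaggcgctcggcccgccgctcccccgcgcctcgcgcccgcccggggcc

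Each motif reads the same on both strands and was searched from 250 bases before to 50 bases after the start: GTCTAGAC, the palindromic SMAD box, GGCGCC, a GC-rich element bound by BMP SMADs, and TTCNNNGAA, the element of STAT factors that act below the erythropoietin receptor. GGCGCC occurred in Id2, Id4 and Nbl1, and in 11.9% of the 32851 windows of all genes. GTCTAGAC occurred in Smad6, across the start itself, and in 0.213% of all windows. The search was first upstream only, and the window was extended past the start after the Smad6 letters were seen. The share over all windows therefore does not say how unusual this match is. TTCNNNGAA occurred in none of the 6 members and in 8.3% of all windows, and no motif overlapped another. Short stretches of 30 bases show the other matches in capitals, for Id2 at chr12:25096306-25096335 (minus strand), Id4 at chr13:48260956-48260985 (plus strand) and Smad6 at chr9:64022045-64022074 (minus strand).
Id2: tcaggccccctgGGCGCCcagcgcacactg
Id4: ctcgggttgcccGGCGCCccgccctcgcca
Smad6: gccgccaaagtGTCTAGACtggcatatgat
A match is a string of letters and not a measured binding site, and no match in Id3 and Bmp4 says only that these letters are not in this window. The upstream 250 bases of these 6 members held 62.8% to 77.6% G and C, against a median of 52.4% over all windows.

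Values are log2(intensity + 16), and a difference is a difference of group means on that scale with its standard error (SE) from limma, fitted on 27022 probe sets. On this scale the change of a dim gene is understated. A probe set passed where its Benjamini-Hochberg adjusted p over all 27022 was under 0.05. By median intensity the arrays formed 2 sets that the labels do not record. Set A was VEH-Sham 1 to 4, at 55.4 to 58.0, and set B was VEH-Sham 5 with the 10 hypoxic ischemia arrays, at 39.3 to 44.5. Array set and surgery therefore cannot be told apart except through VEH-Sham 5, so differences from VEH-Sham 5 alone are given beside those from the whole sham group. The tissue label was checked on marker genes, and 10 of 10 neuron markers were bright enough to test. With array set as a block, 3 probe sets in all (0.0111%) passed in VEH-HI against VEH-Sham and 4 (0.0148%) in EPO-HI against VEH-Sham, and 0 of the members.

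After hypoxic ischemia with vehicle, Id1, Id3, 1 of 3 probe sets of Id2 and Nbl1 were higher than in sham forebrain, and no member was called lower. Of 15 member probe sets bright enough to test, 4 passed, all higher, against 22.8% of all probe sets passing in either direction, 9.85% higher and 13% lower. The members' median difference was 0.15, against -0.06 over all tested probe sets. Their calls entered the choice of members, so nothing is read from these counts. Under equal array medians, which moved the median of all tested probe sets from -0.06 to 0.18, 9 member probe sets passed. In that setting 7727 probe sets passed in all, against 6174 as deposited. The higher share among all calls was 43.1% as deposited, 53.3% after quantile normalization and 85.6% with equal medians.

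As deposited, Id3 had the largest difference of the members. Against VEH-Sham 5 alone Id3 stood at 0.526, below Nbl1 (0.80), Bmp4 (0.65) and Id1 (0.535). Nbl1 also exceeded Id3 with a pseudocount of 1 (0.873 against 0.756). After quantile normalization Nbl1 (0.89) and the Bmp7 probe set 1418910_at (0.751) both exceeded Id3 (0.672). The Id3 probe set 1416630_at read 8.97, 8.82, 8.95, 8.75 and 9.14 in VEH-Sham 1 to 5. It read 9.91, 9.78, 9.47, 9.60 and 9.57 in VEH-HI 6 to 10 and 9.65, 9.71, 9.38, 9.34 and 9.45 in EPO-HI 11 to 15. All 10 injured arrays lay above all 5 sham arrays, VEH-Sham 5 included, an order that 1.59% of tested probe sets showed. VEH-HI alone lay above VEH-Sham without overlap in 3.71%, with Id1 and Id3 among the members. The mean went from 8.93 ± 0.15 to 9.66 ± 0.18 (SD, n = 5 each), a difference of 0.74 (SE 0.10), or 1.67-fold on this scale. Against VEH-Sham 5 alone the difference was 0.53. The call held without any 1 of the 15 arrays and was lost with array set as a block.

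Id1, which marks active BMP signalling in many cells and endothelium in particular, showed the same order of arrays. Its probe set 1425895_a_at read 8.13, 8.07, 8.02, 8.10 and 8.18 in VEH-Sham 1 to 5. It read 9.28, 8.66, 8.53, 8.58 and 8.54 in VEH-HI 6 to 10 and 8.64, 8.54, 8.32, 8.44 and 8.91 in EPO-HI 11 to 15. Sham levels spanned 8.02 to 8.18, and VEH-HI 6 stood well above the other injured arrays. VEH-HI minus VEH-Sham was 0.62 (SE 0.13), 0.53 against VEH-Sham 5 alone, and 0.48 without VEH-HI 6. The call held without any 1 array and was lost with array set as a block.

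Of the 3 probe sets of Id2, 1 passed. The probe set 1422537_a_at read 9.58, 9.37, 9.09, 9.47 and 9.81 in VEH-Sham 1 to 5, against 9.73, 9.52, 9.96, 10.04 and 10.02 in VEH-HI. VEH-Sham 5 lay inside the VEH-HI range, and the difference of 0.39 (SE 0.12) shrank to 0.05 against VEH-Sham 5 alone. Its call was lost without VEH-Sham 2, VEH-Sham 3, VEH-HI 9 or VEH-HI 10, and its limma adjusted p ran from 0.00317 to 0.0779 in settings without the array set. The brightest Id2 probe set, 1435176_a_at, stood at 0.07 (SE 0.10) and 0.20 against VEH-Sham 5, and turned to -0.05 after quantile normalization. The dim 1453596_at stood at -0.11 (SE 0.18) and 0.34 against VEH-Sham 5, and turned to 0.145 and 0.132 under quantile and equal-median scaling. The 3 differed in sign as deposited and all lay above 0 against VEH-Sham 5.

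Id4, the family member best known from neural precursors and astrocytes, did not pass on any of 3 probe sets. Their differences were 0.21 (SE 0.12) for 1450928_at, 0.15 (SE 0.10) for 1423259_at and 0.11 (SE 0.09) for 1423260_at. Against VEH-Sham 5 alone they were -0.09, -0.03 and 0.14. With equal array medians all 3 passed, at 0.45, 0.39 and 0.36. The groups overlapped on every Id4 probe set.

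**Figure D1:**
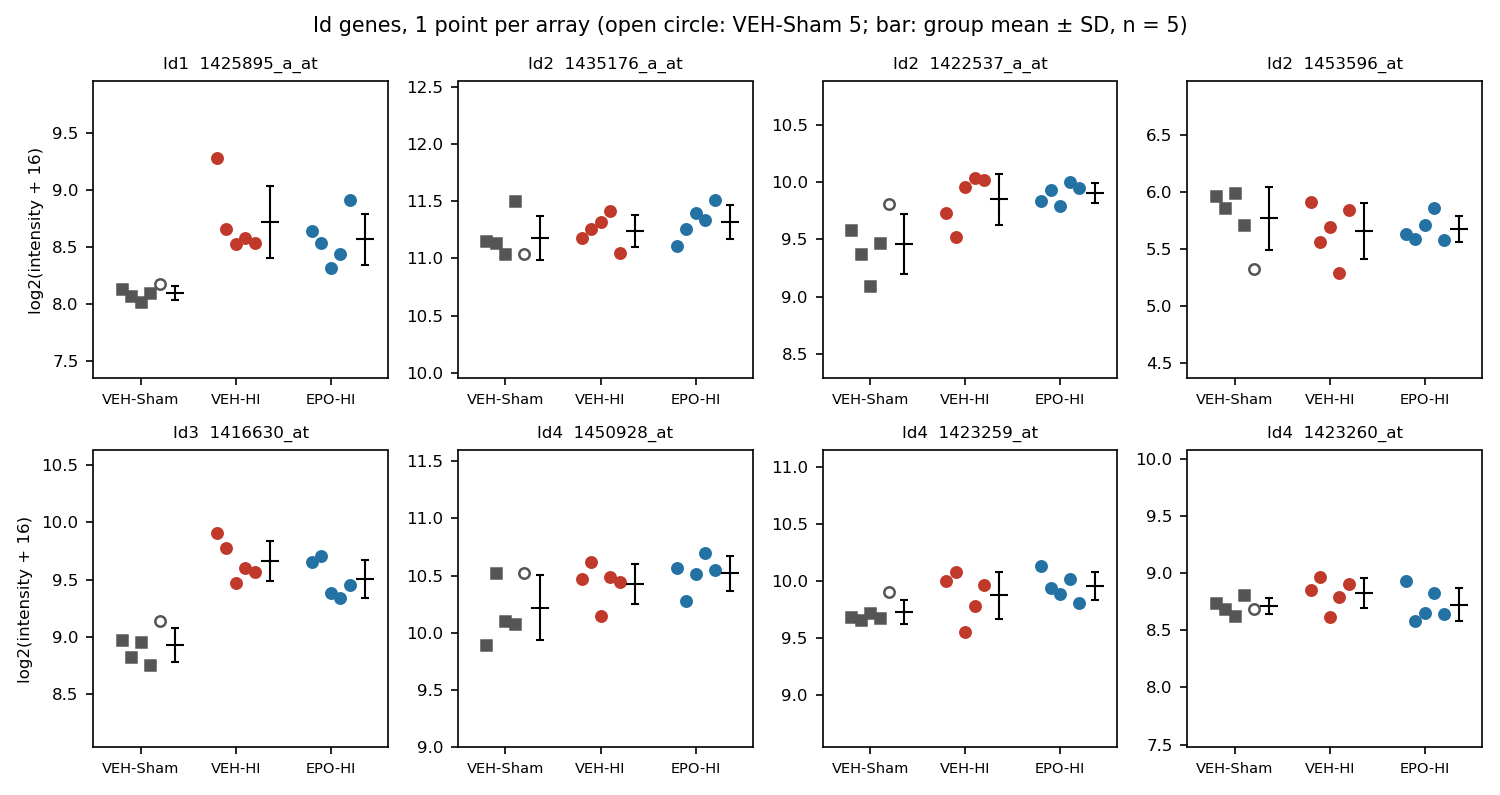
Levels of the 8 Id probe sets, as log2(intensity + 16) on the y axis, by group on the x axis, with 1 point per array, squares for set A, circles for set B, an open circle for VEH-Sham 5, and a bar for the group mean ± SD (n = 5). Every y axis spans the same number of log2 units. In the Id1 and Id3 panels every injured array lies above every sham array, and in the Id2 and Id4 panels the groups overlap.

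Of the antagonists Nbl1 and Nog, Nbl1 alone was bright enough to test. Nbl1, a cystine-knot protein that binds BMPs, read 5.28, 5.61, 6.43, 5.93 and 5.65 in VEH-Sham 1 to 5. In VEH-HI 6 to 10 it read 6.50, 6.66, 7.01, 6.02 and 6.07. VEH-HI 6 to 8 lay above every sham array, while VEH-HI 9 and 10 lay below VEH-Sham 3. The difference was 0.67 (SE 0.22), 0.80 against VEH-Sham 5 alone, and it passed. That call was lost without VEH-Sham 1, 2 or 4, without VEH-HI 6, 7 or 8, with no filter on dim probe sets (adjusted p = 0.052), and with array set as a block (limma adjusted p = 0.73). Without any 1 array the limma adjusted p ran from 0.0158 to 0.0941.

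Nog encodes noggin, the classic BMP antagonist, and its only probe set, 1422300_at, was too dim to test. It read 5.82, 5.47, 4.64, 5.67 and 5.86 in VEH-Sham, 5.15, 5.54, 4.83, 4.95 and 5.63 in VEH-HI and 4.74, 5.95, 5.30, 5.50 and 5.34 in EPO-HI. These are intensities of 9.0 to 46.0, and all 3 groups overlapped.

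Bmp4, a ligand made by vessels, meninges and precursor cells, read 6.26, 6.30, 6.32, 6.10 and 5.69 in VEH-Sham 1 to 5. It read 6.84, 6.38, 6.42, 5.92 and 6.12 in VEH-HI 6 to 10 and 6.32, 5.95, 5.75, 6.11 and 6.18 in EPO-HI 11 to 15. VEH-Sham 5 was the lowest of all 15 arrays, so the difference of 0.20 (SE 0.18) grew to 0.65 against that array alone. It did not pass as deposited and passed with equal array medians, at 0.445.

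Bmp7, a ligand of meninges and choroid plexus, had 2 probe sets bright enough to test. The probe set 1418910_at read 5.27, 5.80, 5.49, 5.53 and 5.99 in VEH-Sham and 6.42, 5.72, 6.09, 6.25 and 6.18 in VEH-HI. Its difference of 0.52 (SE 0.19) missed the threshold and was 0.14 against VEH-Sham 5 alone. It passed without VEH-Sham 5 or VEH-HI 7, after quantile normalization, with equal array medians and without a variance trend. The brighter 1435479_at stood at -0.05 (SE 0.16) and 0.30 against VEH-Sham 5, and turned to 0.08 and 0.19 under quantile and equal-median scaling. The third, 1432410_a_at, was too dim to test, with a mean of 5.54 in VEH-Sham, 5.36 in VEH-HI and 5.24 in EPO-HI. The 3 probe sets differed in sign against the whole sham group and lay above 0 against VEH-Sham 5.

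Neither inhibitory SMAD passed. Smad6, which competes for BMP-activated SMADs, stood at -0.03 (SE 0.22, 95% interval -0.48 to 0.42) and at -0.18 against VEH-Sham 5, and all 3 groups overlapped. Its sign turned to 0.20 and 0.22 under quantile and equal-median scaling. Smad7, the broader inhibitor of BMP and TGF-beta receptors, read 7.11, 7.06, 7.26, 7.14 and 6.79 in VEH-Sham 1 to 5 on 1423389_at. In VEH-HI the same probe set read 6.94, 6.94, 6.85, 6.52 and 6.97, and in EPO-HI 6.56, 6.94, 6.65, 6.85 and 6.67. VEH-Sham 1 to 4 lay above every injured array and VEH-Sham 5 lay among them. The difference of -0.23 (SE 0.13) was 0.05 against VEH-Sham 5 and 0.02 with equal array medians. The second probe set, 1443771_x_at, whose suffix marks probes that may also match other transcripts, stood at -0.02 (SE 0.24) and 0.37 against VEH-Sham 5, with VEH-HI 6 at 7.36 the highest of its arrays. It turned to 0.164 and 0.225 under quantile and equal-median scaling.

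**Figure D2:**
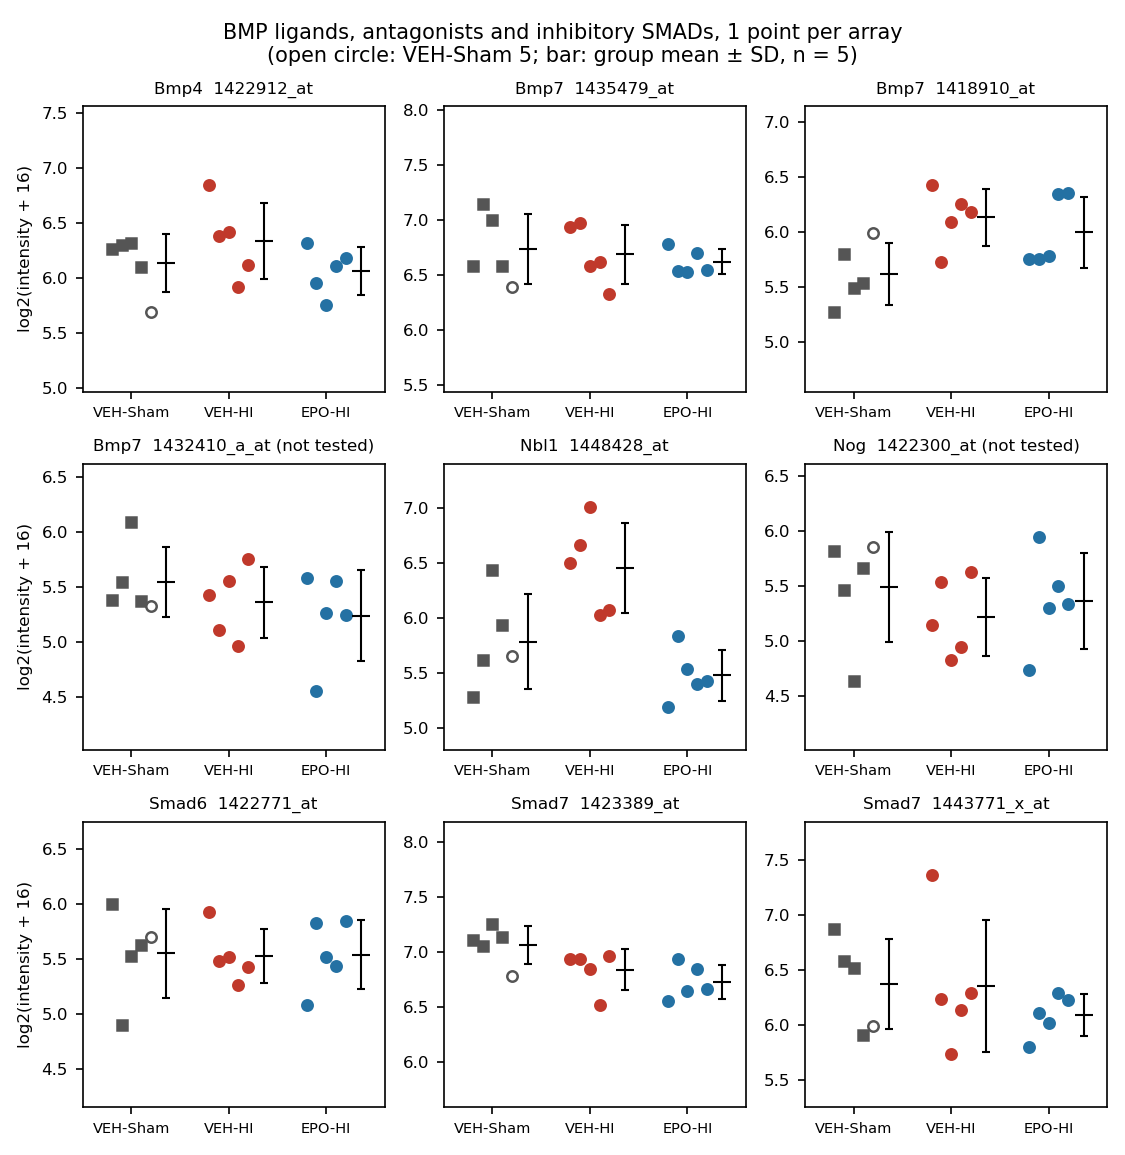
Levels of the 9 probe sets of Bmp4, Bmp7, Nbl1, Nog, Smad6 and Smad7, as log2(intensity + 16) on the y axis, in the 3 groups on the x axis, with 1 point per array, squares for set A, circles for set B, an open circle for VEH-Sham 5, and a bar for the group mean ± SD (n = 5). Nbl1 is the only panel in which the VEH-HI and EPO-HI arrays do not overlap, at 6.02 to 7.01 against 5.19 to 5.83.

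EPO-HI against VEH-HI tests erythropoietin given ahead of hypoxic ischemia. Both groups lie in set B, while the SEs, intervals and p-values use the spread of all 15 arrays. Nbl1 showed the largest difference of the tested members here. It read 5.19, 5.83, 5.53, 5.40 and 5.42 in EPO-HI 11 to 15, below the lowest VEH-HI array at 6.02. EPO-HI 12 to 15 lay inside the sham range of 5.28 to 6.43, and EPO-HI 11 lay below it. In linear units the median intensity was 34.2 in VEH-Sham, 74.4 in VEH-HI and 26.8 in EPO-HI. The mean was 6.45 ± 0.41 in VEH-HI and 5.47 ± 0.23 in EPO-HI (SD, n = 5 each), a difference of -0.98 (SE 0.22, 95% interval -1.43 to -0.52), so VEH-HI was 1.97-fold higher on this scale. Over leave-one-out settings the difference ran from -1.09 to -0.84. Groups failed to overlap with EPO-HI lower in 0.392% of tested probe sets, 106 of 27022, and Nbl1 was picked knowing that it was among them.

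Nbl1 did not pass the threshold in that comparison. With limma 0 of 15 member probe sets and 0 of 27022 probe sets in all passed (0%), while at an unadjusted p under 0.05 there were 1 of 15, Nbl1, and 1066 of 27022 (3.94%). The adjusted p of Nbl1 ran from 0.43 to 1 in settings without the array set (limma). It rests on 1 probe set near the bottom of the tested range, and its difference was -1.3 with a pseudocount of 1 and -0.56 with a pseudocount of 64.

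The Id genes stayed close between the injured groups. EPO-HI minus VEH-HI was -0.15 for Id1 (SE 0.13, 95% interval -0.42 to 0.12) and -0.16 for Id3 (SE 0.10, 95% interval -0.37 to 0.06). These intervals leave room for a level in EPO-HI that is lower by 0.42 and 0.37. Id1 in this comparison went to -0.01 without VEH-HI 6. The 3 probe sets of Id2 stood at 0.08, 0.05 and 0.02, and those of Id4 at 0.09, 0.08 and -0.10, with SEs of 0.09 to 0.18. Bmp4 stood at -0.27 (SE 0.18), the tested Bmp7 probe sets at -0.07 and -0.14, Smad6 at 0.02 (SE 0.22) and the 2 Smad7 probe sets at -0.11 and -0.27.

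EPO-HI and VEH-HI were each also set against the same sham arrays, so the 2 comparisons share their controls. Against VEH-Sham, EPO-HI stood at 0.58 (SE 0.10) for Id3, beside 0.74 for VEH-HI, and at 0.47 (SE 0.13) for Id1, beside 0.62. Against VEH-Sham 5 alone these EPO-HI differences were 0.37 and 0.39. The Id2 probe set 1422537_a_at stood at 0.44 (SE 0.12), beside 0.39, and at 0.10 against VEH-Sham 5. Those 3 of 15 member probe sets passed, all higher, where 18.3% of all probe sets passed, 7.42% higher and 10.9% lower. Id1 lost this call without VEH-Sham 3 or EPO-HI 15, Id2 without VEH-Sham 3, and all 3 with array set as a block. Nbl1 stood at -0.31 (SE 0.22), beside 0.67 for VEH-HI, and at -0.18 against VEH-Sham 5, and did not pass.

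**Figure D3:**
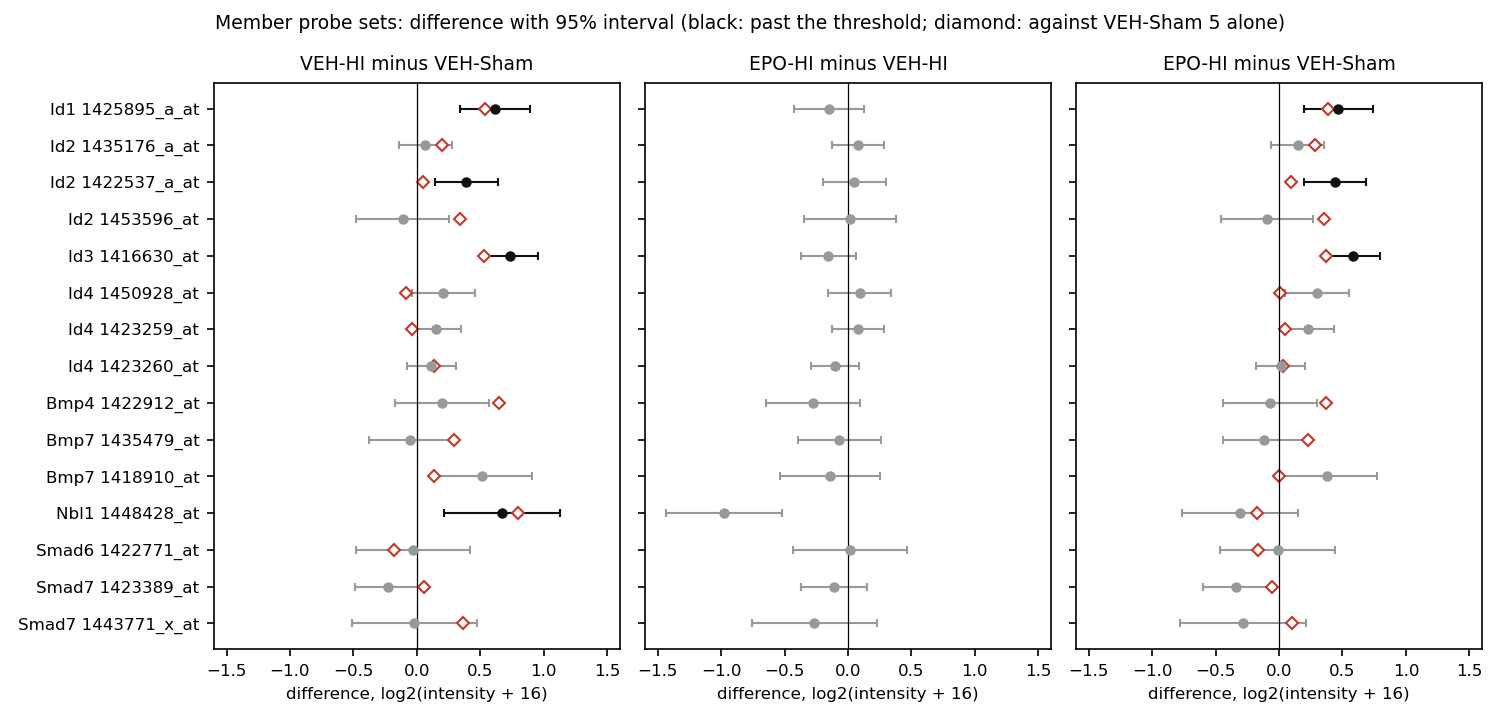
Differences of the 15 tested member probe sets, in log2(intensity + 16) on the x axis, in the 3 comparisons, with 95% limma intervals, black where the probe set passed over all 27022 and grey where it did not, and open diamonds for the difference from VEH-Sham 5 alone. In the first panel the diamond of Id1 lies at 0.53 beside a filled point at 0.62, that of Id3 at 0.53 beside 0.74, near the lower end of its interval, and that of Id2 1422537_a_at at 0.05 beside 0.39, and Nbl1 is the only member far from 0 in the middle panel.

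Markers of other cells moved in the same arrays, and bulk RNA cannot tell more cells of a type from more RNA per cell. Of 12 astrocyte markers 6 rose and 0 fell after hypoxic ischemia, and their summed intensity was 10056 to 12481 in VEH-Sham 1 to 4, 12942 in VEH-Sham 5, 12858 to 16465 in VEH-HI and 13453 to 15102 in EPO-HI. Of 10 reactive astrocyte markers tested 7 rose and 0 fell, with sums of 2272 to 2487, 2354, 4223 to 8755 and 3824 to 6674 in the same order. In that sum all 10 injured arrays exceeded all 5 sham arrays, an order that Id1, Id3 and 1.59% of tested probe sets showed singly. A sum over 10 genes is not the same measure as 1 probe set, so nothing is read from the shared order. Of 13 endothelial markers 2 rose and 1 fell, and their sums overlapped between groups, at 1490 to 1607, 1535, 1343 to 2241 and 1403 to 1704. Of 12 microglia and macrophage markers 8 rose and 1 fell, with sums of 2843 to 3504, 3412, 4160 to 5847 and 3440 to 4605. Across the 13168 genes tested, 11.9% rose and 11.5% fell in VEH-HI, so nothing is read from the endothelial counts. The median VEH-HI difference of the astrocyte markers was 0.327 against the whole sham group and 0.118 against VEH-Sham 5 alone. For endothelium it was 0.192 and 0.036, and for microglia and macrophages 0.53 and 0.453. For reactive astrocytes it did not shrink, at 1.25 against VEH-Sham 5. No tested marker of these lists was at 0 on any array, and Steap4, Ly6c1, Trem2 and Itgam were too dim to test. The part of these cells in the Id and Nbl1 levels was not tested.

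In EPO-HI against VEH-HI 10 of 12 meningeal and fibroblast markers were below 0 (median -0.29), with sums of 2785 to 4157 in VEH-HI and 2458 to 2874 in EPO-HI. All 10 reactive astrocyte markers (median -0.19) and all 12 microglia and macrophage markers (median -0.18) were below 0 too. Their sums, given above, overlapped between VEH-HI and EPO-HI. Below 0 were also 12 of 13 endothelial (median -0.11), 9 of 12 astrocyte (median -0.07), 7 of 8 choroid plexus and 6 of 8 pericyte markers. The counts were 4 of 8 for forebrain, 4 of 6 for hindbrain, 3 of 6 for oligodendrocyte and 3 of 6 for precursor markers. Of neuron markers 1 of 10 was below 0 (median 0.05). The median over all tested genes was -0.005. Genes of 1 list may vary together, so nothing is read from these counts. With limma 0 of these markers passed. The part of these cells in the Nbl1 difference was not tested.

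The other genes of the pathway were described from a list of 100 genes by role, of which 76 were bright enough to test. After hypoxic ischemia 3 rose, 8 fell and 65 did not pass (14.5%), against 23.4% of all 13168 tested genes, and the list's median was -0.00 against -0.02 over all tested genes. With limma 0 of 14 ligands passed, and 1 had an unadjusted p under 0.05. Of 16 receptors 1 fell, Rgmb, a BMP co-receptor, at -0.36 (SE 0.12, limma adjusted p = 0.0429) and -0.11 against VEH-Sham 5. The BMP receptors Bmpr1a, Bmpr1b, Bmpr2 and Acvr1, named here for their role after their values were seen, stood at 0.31, 0.01, 0.03 and 0.01, and at 0.05, -0.04, -0.03 and 0.11 against VEH-Sham 5, and did not pass.

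Of 14 extracellular antagonists tested 1 was called higher and 4 lower (35.7%), against 11.9% higher and 11.5% lower over all tested genes. Of the 4 lower, Crim1 and Fst stood near 0 or above it against VEH-Sham 5. Fstl1, a follistatin-like secreted protein, rose by 0.63 (SE 0.14, limma adjusted p = 0.00414) and stood at 0.23 against VEH-Sham 5. Crim1, a membrane protein that tethers BMPs, fell by 0.96 as deposited (SE 0.22, limma adjusted p = 0.00503) but stood at 0.13 against VEH-Sham 5, and its 1 other tested probe set did not share the direction. The BMP and activin antagonists Chrdl1, Grem1 and Fst were at -0.60, -0.54 and -0.58 (limma adjusted p = 0.0104, 0.0275 and 0.0349) and at -0.33, -0.37 and -0.04 against VEH-Sham 5.

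Inside the cell, Smad4, the partner of all receptor-activated SMADs, rose by 0.42 (SE 0.10, limma adjusted p = 0.00643, 0.11 against VEH-Sham 5), and the other 4 SMADs tested did not pass. Against the whole sham group the brightest probe sets of the SMAD-binding repressors Zeb1 and Zeb2 stood at 0.51 and -0.46 (limma adjusted p = 0.0152 and 0.0212). Against VEH-Sham 5 both lay below 0, at -0.02 and -0.23. Of their other tested probe sets 1 of 2 for Zeb1 and 2 of 3 for Zeb2 shared the direction. Of 8 targets other than the Id genes 1 fell, Hamp, the iron hormone hepcidin, at -0.77 (SE 0.17, limma adjusted p = 0.00381, -0.45 against VEH-Sham 5). Its probe set may also match other transcripts. The 1 lower target is 12.5% of its role, as is the 1 lower helix-loop-helix partner named next. Among the 13168 genes tested 11.5% fell, so nothing is read from either count. Of 8 helix-loop-helix partners 1 fell, the neuronal Neurod2, at -0.50 (SE 0.13, limma adjusted p = 0.0106, -0.25 against VEH-Sham 5), and the E proteins Tcf3, Tcf4 and Tcf12, named after their values were seen, did not pass, at 0.19, -0.14 and 0.28, and 0.23, -0.01 and 0.02 against VEH-Sham 5. None of these calls was left with array set as a block.

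In EPO-HI against VEH-HI 0 of 76 pathway genes passed with limma and 3 had an unadjusted p under 0.05. The 4 with the smallest p were Smad1, a BMP-activated SMAD, at -0.23 (SE 0.09), the ligand Tgfb2 at -0.32 (SE 0.14), the co-receptor Tgfbr3 at -0.36 (SE 0.16) and the receptor Acvr2a at 0.18 (SE 0.10), all with a limma adjusted p = 1.00.

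**Figure D4:**
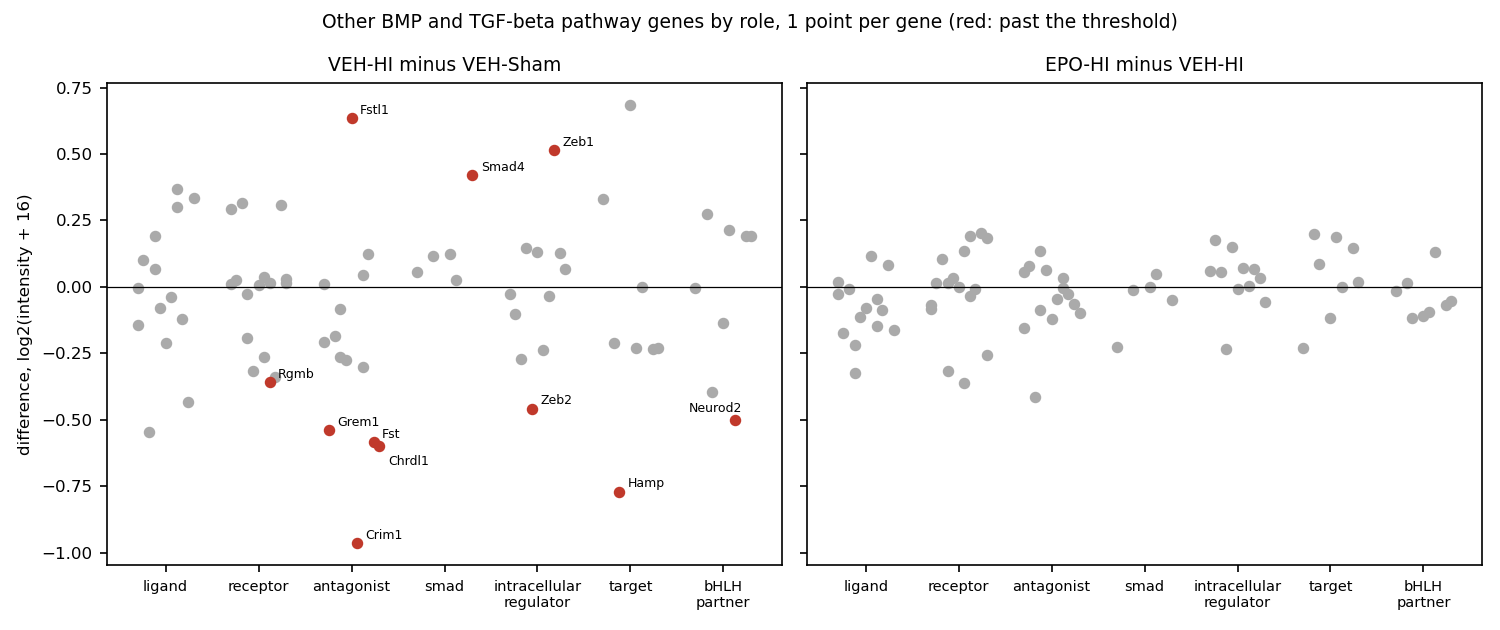
Difference of each of 76 pathway genes other than the members, in log2(intensity + 16) on the y axis, by role on the x axis, for hypoxic ischemia against sham (left) and erythropoietin against vehicle (right), with 1 point per gene and red for genes that passed. Red points number 11 on the left, 5 of them antagonists, and 0 on the right.

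The members were also compared with each other across the 10 injured arrays, each value taken as its difference from its own group mean and each gene by its brightest probe set. Of 45 pairs 3 had a permutation p under 0.05 for Pearson's r, and 0 passed after Benjamini-Hochberg adjustment (smallest adjusted p = 0.256). Id1 and Bmp4 had r = 0.769 (permutation p = 0.00745, adjusted 0.256) and rho = 0.721 (permutation p = 0.0233, adjusted 0.24), with r = 0.605 without the 2 arrays farthest in Id1. Id1 and Id3 had r = 0.612 (permutation p = 0.0546, adjusted 0.528) and rho = 0.818 (permutation p = 0.00608, adjusted 0.192), with r = 0.847 without the 2 farthest arrays. By group, r of Id1 with Id3 was 0.867 in VEH-HI and 0.249 in EPO-HI, and that of Id1 with Bmp4 was 0.809 and 0.683. The other pairs with a permutation p under 0.05 for r were Nog with Smad7 (r = 0.755, rho = 0.782) and Bmp4 with Bmp7 (r = 0.649, rho = 0.564, permutation p of rho = 0.0971). The Nog probe set was too dim to test, so its correlations rest on values near the floor. For rho alone they were Id4 with Bmp7 (rho = 0.77, permutation p = 0.0128, adjusted 0.192) and Id1 with Bmp7 (rho = 0.709, permutation p = 0.0267, adjusted 0.24). By group, r of Id4 with Bmp7 was 0.472 in VEH-HI and 0.589 in EPO-HI, and that of Id1 with Bmp7 was 0.643 and 0.0304. Nbl1 and Id1 had r = -0.0285 and rho = -0.0667 (permutation p = 0.939 and 0.864).

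**Figure D5:**
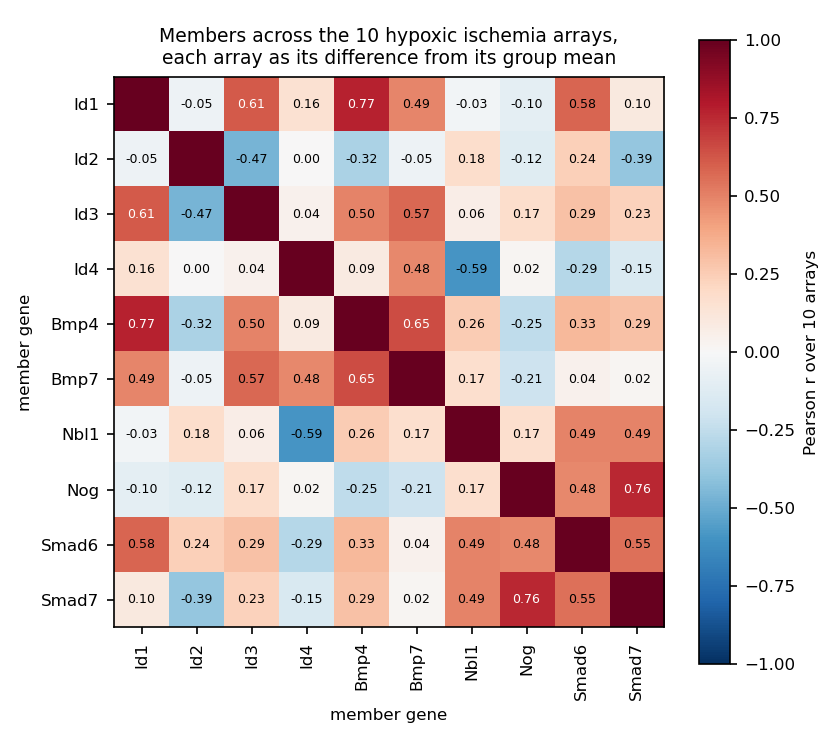
Pearson's r between the brightest probe sets of the 10 members over the 10 hypoxic ischemia arrays, each array as its difference from its group mean, with genes on both axes and colour from -1 (blue) to 1 (red). Id1 with Bmp4 (0.769) and Nog with Smad7 (0.755) are the highest pairs, and no pair passed adjustment over 45. The Nog probe set was too dim to test.

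Genes whose pattern over the same 10 arrays was most like a member were taken as the 3 highest r among 12503 named genes, a choice that makes high values certain to appear. They were Igfbp7 (0.969), Nckap1l (0.964) and Gatad2a (0.953) for Id1, and Tspoap1 (0.969), Zfp612 (0.936) and Nsmce4a (0.935) for Nbl1. For Bmp4 they were Cd164 (0.953), Erf (0.952) and Ier3 (0.948), and for Smad7 Cactin (0.956), Tmub1 (0.929) and Ctf1 (0.926).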

How the data were processed

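Forebrain RNA of 15 mouse samples was measured on 15 Affymetrix mouse genome arrays, 5 per group. The deposited intensity table is on a linear scale, and no source used here names the software behind it. Every array had a mean of 150.0 after trimming 2% of its probe sets from either end, so the values were deposited already scaled. The table held 45101 probe sets, and 64 control probe sets were left out. Genes were named from the platform annotation, updated by gene number against RefSeq GRCm38.p6, and 932 probe sets with several symbols and 9160 not listed were not named.

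Intensities were used as log2(intensity + 16). The brightest 60% of probe sets by mean over all arrays (27022, mean of at least 5.46) entered 1 model with 3 group means in limma 3.58.1 under R 4.3.3 (eBayes with trend), two-sided, with Benjamini-Hochberg adjustment. The model was tested on simulated data of 27022 probe sets, where it recovered 80% of changes of 1 log2 unit and 99% of changes of 2 in VEH-HI against VEH-Sham. The simulated noise was independent between arrays and held no difference between array sets. Changes under 1 log2 unit, the size of the member differences, were not simulated. These rates therefore say nothing about how sure the calls against sham are. The number of arrays limits the precision. Array sets were split where log2 array medians lay farthest apart (0.24). For a pathway gene the brightest of its tested probe sets was used. Motifs were first searched upstream of the start, and the window was extended past the start after the Smad6 letters were seen. Correlations used 100000 permutations in Python 3.11.15.

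The members and lists were chosen with earlier results of these data known. All members were to be named, with up to 12 pathway genes past the threshold after hypoxic ischemia, the 4 pathway genes with the smallest p after erythropoietin, up to 2 genes of a marker list, and the 3 genes most like Id1, Nbl1, Bmp4 and Smad7. Neuron, forebrain, hindbrain, pericyte, choroid plexus, oligodendrocyte and precursor markers were also listed. Of these, 0 of 10 neuron markers rose and 2 fell, 0 and 1 of 8 forebrain, 1 and 0 of 6 hindbrain, 1 and 0 of 8 pericyte, 2 and 0 of 8 choroid plexus, 0 and 1 of 6 oligodendrocyte and 0 and 0 of 6 precursor markers, and 4 and 0 of 12 meningeal markers, after hypoxic ischemia.

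Alternatives were pseudocounts of 1 and 64, no filter and the brightest 40%, quantile and equal-median scaling, no variance trend, array set as a block, set B alone, the mean of a gene's probe sets, and leaving out each array.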

Additional observations from a re-analysis of the deposited data

Results flagged for a closer look

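In 5 of the 51 groups of 5 arrays formed by 17 member probe sets, 1 array stood apart from the other 4 by more than 0.71 of the group's range (Dixon's test), where chance gives about 1 in 20. Id1 in VEH-HI 6 was at 9.28, with a gap of 0.817 of the range to the next array. Id2 (1435176_a_at) in VEH-Sham 4 was at 11.50 (0.763), and Id4 (1423259_at) in VEH-Sham 5 at 9.91 (0.751). Bmp7 (1432410_a_at, too dim to test) in VEH-Sham 3 was at 6.09 (0.719), and Smad7 (1423389_at) in VEH-HI 9 at 6.52, the lowest of its group (0.726).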

How the results depend on the processing

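The limit on every value against sham is that only VEH-Sham 5 shares an array set with the injured arrays. With array set as a block and within set B, 3 and 7 probe sets passed for VEH-HI and 4 and 5 for EPO-HI against VEH-Sham, and 0 of the members and 0 of the pathway genes in both. Crim1 turned to 0.13 and Zeb1 to -0.015 under both settings. With equal array medians 9 and 7 member probe sets and 18 and 21 pathway genes passed for VEH-HI and EPO-HI against VEH-Sham. In all 7727 probe sets passed for VEH-HI and 8603 for EPO-HI in that setting. The brightest 40% of probe sets gave 7 pathway genes for VEH-HI and 3008 probe sets for EPO-HI, with fewer probe sets tested.

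Leaving out 1 array gave 3824 to 9609 probe sets for VEH-HI and 2509 to 9047 for EPO-HI against VEH-Sham, with 2 to 5 and 1 to 6 member probe sets and 6 to 19 and 6 to 18 pathway genes. Each highest count came without VEH-Sham 5. The lowest counts of all probe sets came without VEH-Sham 4, of members without VEH-Sham 2 (VEH-HI) and 3 (EPO-HI), and of pathway genes without VEH-Sham 3 (VEH-HI) and 4 (EPO-HI). The cause of these changes was not tested. EPO-HI against VEH-HI gave 0 to 4 probe sets, the 4 without VEH-HI 8, and 0 members and 0 pathway genes in every setting. The mean of a gene's probe sets gave 9 pathway genes for VEH-HI. No pair of members passed under equal-median or quantile scaling. In leave-one-out settings no member difference moved by more than 1 SD between replicates, and in the other settings 28, 1 and 30 of 129 did in VEH-HI against VEH-Sham, EPO-HI against VEH-HI and EPO-HI against VEH-Sham. No member that passed changed its sign, while differences of Bmp4, Bmp7, Id2, Id4, Smad6 and Smad7 that had not passed did. How member differences are sorted into moved and reversed was settled after these sign changes were seen. No paired analysis was possible because replicate numbers run through the whole series and no 2 groups share one.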
